A study of Homo sapiens with 6 samples.

Results

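The genes described here are 10 genes of protein folding in the endoplasmic reticulum (ER) and of the unfolded protein response (UPR): HSPA5, HSP90B1, CALR, CANX, PDIA3, PDIA4, PDIA6, DNAJB9, XBP1 and HERPUD1. They were taken by symbol from a table of 61280 gene rows, each symbol had 1 row, and all 10 passed the filter on low values. Their RNA was measured in MDA-MB-231, a human breast cancer cell line of the triple-negative kind. In the irradiated group, 3 libraries came from cells given an X-ray dose of 20 Gy and grown for another 24 h. In the control group, 3 libraries came from the same line without irradiation, and no culture time is stated for them. All cells grew in DMEM with fetal bovine serum and antibiotics.

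Proteins that enter the ER are folded there by chaperones, are joined by disulfide bonds made by protein disulfide isomerases, and, if they carry sugar chains, are held by the lectin chaperones until folded. When unfolded proteins build up, the sensors IRE1 (gene ERN1), PERK (gene EIF2AK3) and ATF6 start the UPR. It raises chaperone and degradation genes through the transcription factors XBP1 and ATF6, and it slows translation and raises ATF4 through PERK. The chaperone encoded by HSPA5, known as BiP, binds the sensors in unstressed cells, and its transcript is the usual readout of the response.

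Many UPR genes carry in their promoters the ER stress response element (ERSE), a CCAAT box that NF-Y binds, followed after a spacer of 9 bases by CCACG, which ATF6 and XBP1 bind. The sequences are shown as a description of the promoters that does not use RNA levels. The 10 genes were chosen as genes of ER folding and the UPR, so matches in them are no independent evidence. Promoter windows from RefSeq (build GRCh38.p14, 250 bases before to 50 after each transcript start) were present for 9 of the 10 genes, in 15 windows. PDIA3 had no entry. Both strands were searched for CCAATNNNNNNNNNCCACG (ERSE), for ATTGGNCCACG (ERSE-II, a shorter element with the CCAAT box in reverse) and for TGACGTGG (the UPR element, UPRE). The complete ERSE was found in 27 of all 35116 windows, 0.0769%. Among the 10 genes it was found in 6 (HSPA5, HSP90B1, CALR, CANX, PDIA6 and XBP1), as 7 separate matches. The ERSE-II, present in 0.0541% of all windows, was found in HERPUD1. The UPRE, present in 0.729% of all windows, was in none of the 15. PDIA4 and DNAJB9 were searched and held no complete ERSE, ERSE-II or UPRE. Each match below is written 5′ to 3′ in the direction of the motif with 5 flanking bases on each side, and capitals mark the fixed letters of the motif.
HSPA5, chr9:125241391-125241409, gene strand: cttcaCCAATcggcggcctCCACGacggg
HSP90B1, chr12:103930216-103930234, gene strand: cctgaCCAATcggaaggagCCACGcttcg
HSP90B1, chr12:103930321-103930339, opposite strand: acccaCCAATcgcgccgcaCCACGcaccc
CALR, chr19:12938384-12938402, opposite strand: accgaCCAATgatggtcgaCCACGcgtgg
CANX, chr5:179698778-179698796, gene strand: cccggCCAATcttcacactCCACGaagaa
PDIA6, chr2:10812853-10812871, gene strand: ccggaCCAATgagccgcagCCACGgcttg
XBP1, chr22:28800603-28800621, gene strand: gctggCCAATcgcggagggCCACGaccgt
HERPUD1 (ERSE-II), chr16:56932025-56932035, gene strand: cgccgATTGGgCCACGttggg

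The spacer between the capitals differed in every gene. In HSPA5 the match lay at -66 to -48 from the transcript start, in XBP1 at -52 to -34, in HERPUD1 at -117 to -107 and in CALR at -225 to -207. In GENCODE 29 (the same assembly) these 4 lie outside any annotated gene. The CANX match and both HSP90B1 matches overlap annotated exons of their own genes that begin further upstream, and the PDIA6 match lies in an intron of PDIA6, before its downstream start. The 250 bases before the HSPA5 start (chr9:125241344-125241593, minus strand, written in the direction of the gene) are shown as the reference promoter of the UPR, with the complete ERSE in capitals. They hold 4 CCAAT boxes counted on both strands, of which 1 belongs to the complete ERSE.
HSPA5 promoter: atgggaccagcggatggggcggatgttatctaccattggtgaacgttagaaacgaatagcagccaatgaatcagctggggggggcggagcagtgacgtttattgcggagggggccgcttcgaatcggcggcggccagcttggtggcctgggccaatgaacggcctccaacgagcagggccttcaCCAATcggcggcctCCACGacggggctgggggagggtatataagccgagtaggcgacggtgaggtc

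**Figure D1:**
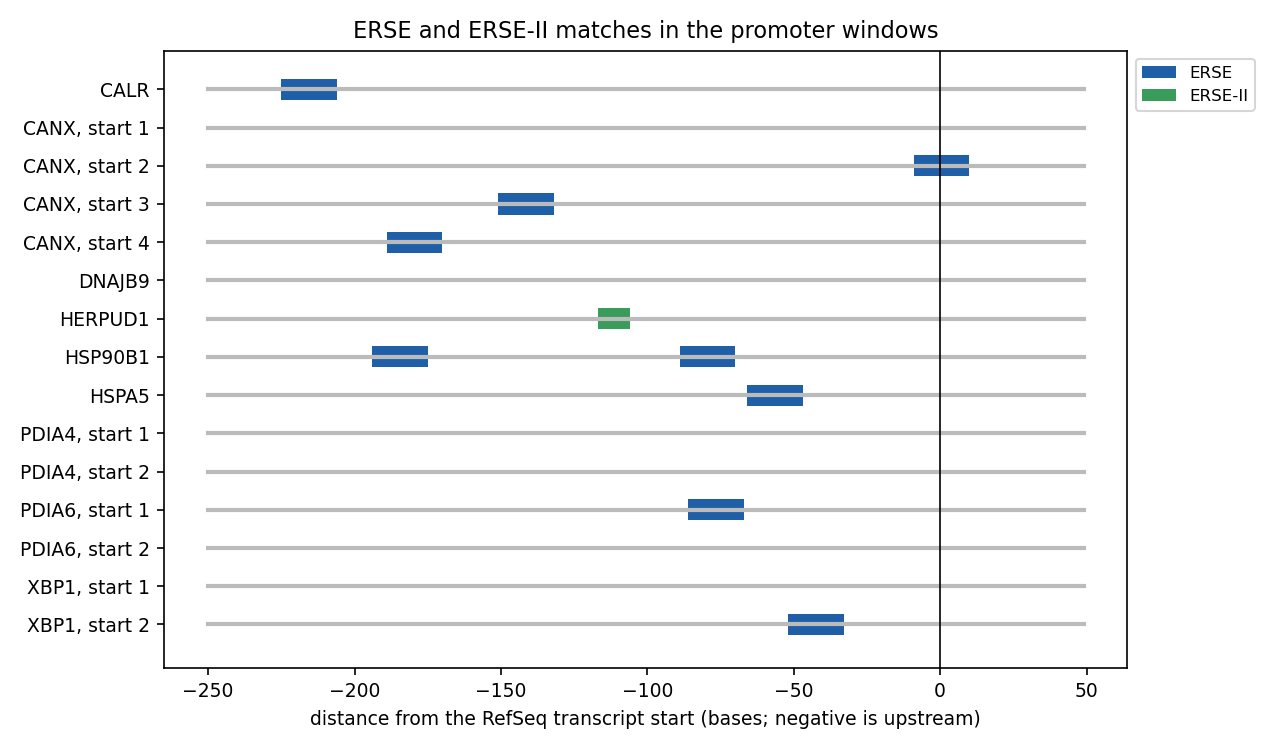
Position of complete ERSE (blue) and ERSE-II (green) matches in the promoter windows of 9 genes, with distance from the RefSeq transcript start in bases on the x axis and 1 line per annotated start. The HSPA5 match lies at -66 to -48; CANX has a single genomic match, seen from 3 of its starts.

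Levels are given as TPM (a gene's share of its library after division by transcript length). Levels of different genes can thus be compared only roughly, as effects of GC content or transcript length may remain. The number of reads behind a value is unknown. Whether replicates are separate cultures is not stated, so every p-value rests on a spread between libraries that may be technical. The line carried its own markers (VIM at 1583 to 2011 TPM, CD44 at 186 to 268 TPM), and ESR1 and PGR, which define hormone receptor positive cells, stayed at or below 0.39 TPM. Of 7 luminal markers, 3 (ESR1, PGR and CDH1) stayed under 1 TPM in every library. The others were ERBB2 (20.9 to 27.9 TPM), EPCAM (8.32 to 11.3 TPM), GATA3 (3.70 to 4.96 TPM) and FOXA1 (2.97 to 3.73 TPM). Of 6 leukocyte markers, 5 stayed under 1 TPM in every library. The sixth, PTPRC, was at 40.4 TPM in irradiated replicate 1 and at most 0.45 TPM in the other 5 libraries. The summed leukocyte markers ranged from 0.72 to 1.29 TPM in controls and from 1.19 to 41.0 TPM in irradiated libraries. The part of this in the results was not tested. Without that library the calls over all tested genes numbered 688 instead of 1550. Of the 19 called genes named below, 9 then passed the test (ATF4, SIL1, SSR2, KDELR2, HSP90AA1, DNAJB6, STIP1, TRIM5 and TMEM120A; adjusted p = 0.0156 to 0.0480, limma) and 10 did not (0.0518 to 0.0850), with the same direction in all 19.

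At 24 h after irradiation the RNA of these genes was close to its control level. No gene rose past the test, 1 fell (PDIA3, by 10.4%), and the means of the other 9 differed from control by -15.9% to 8.52%. The test was limma on log2(TPM + 1) over 14621 genes, with Benjamini-Hochberg adjustment over all of them, and a gene was called at an adjusted p under 0.05. By the same rule 10.6% of all tested genes were called in either direction, 6.53% of those tested higher and 4.07% lower, so 1 call among 10 genes is near the background. Together the 10 genes made up 0.275% to 0.283% of each control library and 0.259% to 0.276% of each irradiated library. Their summed level was 2784 ± 37.4 TPM (SD, n = 3) in controls and 2692 ± 88.0 TPM (SD, n = 3) in irradiated cells, and the ranges overlapped. Without CALR and CANX the sums ran from 1502 to 1568 TPM in controls and from 1398 to 1485 TPM in irradiated libraries, without overlap. That narrower sum was not among the planned results. Of the log2 changes, 8 of 10 were negative, against 6594 of the 14621 tested genes. The median log2 change of the 10 genes was -0.07, against 0.03 over all tested genes.

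**Figure D2:**
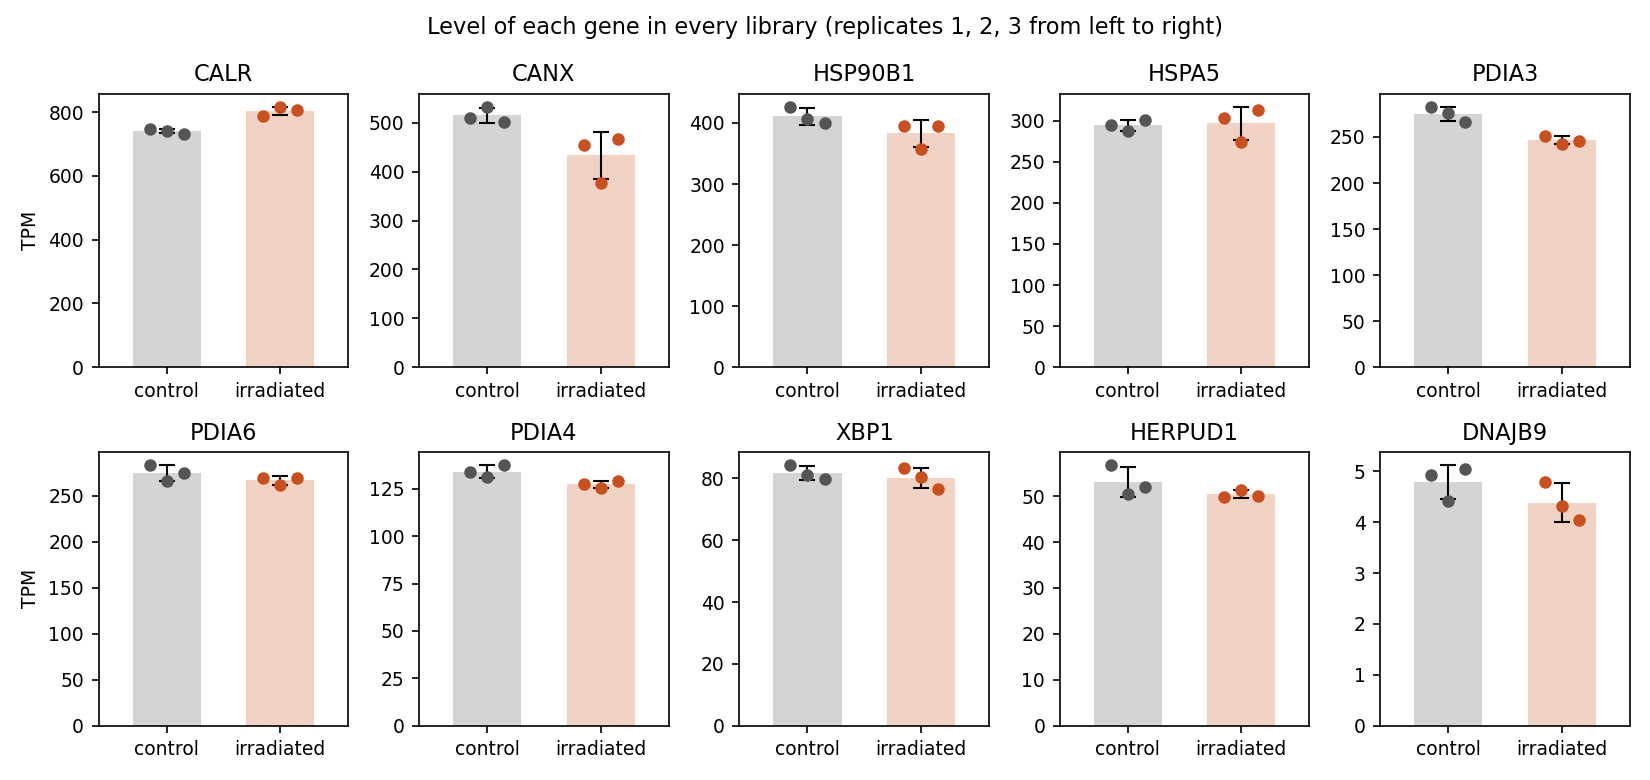
TPM of each gene in every library, with control in grey and irradiated in orange. Points are replicates 1, 2 and 3 from left to right, bars are means and error bars are SD (n = 3 per group); the 2 groups lie close together in every panel.

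Among the general chaperones, HSPA5 (ENSG00000044574; chromosome 9, 125234853 to 125241330) showed no detectable change. BiP, its product, is the ER member of the HSP70 family. Its level was 294.8, 287.3 and 301.1 TPM in control replicates 1 to 3 and 303.7, 274.6 and 313.1 TPM in the irradiated ones. The irradiated values lay on both sides of the controls. The log2 change was 0.01 ± 0.05 (SE; adjusted p = 0.913, limma), and its unadjusted 95% interval ran from a ratio of 0.922 to one of 1.10. The sign of this estimate turned negative after median-ratio scaling (-0.02) and when control replicate 2, irradiated replicate 1 or irradiated replicate 3 was left out (-0.03 to -0.01).

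HSP90B1 (ENSG00000166598; chromosome 12, 103930107 to 103953645) encodes GRP94, the ER member of the HSP90 family. It was at 426.9, 406.1 and 399.6 TPM in controls and at 395.2, 358.1 and 395.2 TPM after irradiation. All irradiated values lay below all control values, but the gap between the groups was smaller than the spread within either. The log2 change of -0.10 ± 0.05 (SE) did not pass the test (adjusted p = 0.241, limma). The HSPA5 to HSP90B1 ratio was 0.717 ± 0.0326 (SD, n = 3) in controls and 0.776 ± 0.0143 in irradiated cells, without overlap (exact permutation p = 0.10, two-sided, the smallest that 3 against 3 can give). This ratio was not among the planned results, so it describes only these libraries.

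The largest differences in either direction belonged to the lectin chaperones, calreticulin (CALR, soluble in the ER lumen) and calnexin (CANX, anchored in the ER membrane), which bind the same sugar tag on unfolded glycoproteins. CALR (ENSG00000179218; chromosome 19, 12938578 to 12944489) was at 747.5, 741.2 and 732.6 TPM in controls and 788.4, 816.1 and 806 TPM in irradiated cells. CANX (ENSG00000127022; chromosome 5, 179678628 to 179730925) was at 509.9, 533.5 and 502.4 TPM in controls and 454.1, 378 and 467.8 TPM in irradiated cells. Every irradiated value of CALR was above, and every irradiated value of CANX below, all controls. Non-overlap of this kind is common here: over all tested genes, 34.9% had no overlap in either direction (20.4% with the irradiated above, 14.5% below), against 5 of these 10 genes (1 above and 4 below).

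Neither lectin chaperone passed the test. The log2 change of CALR was 0.12 ± 0.03 (SE; adjusted p = 0.0622, limma; mean 8.52% higher), and that of CANX was -0.26 ± 0.08 (SE; adjusted p = 0.0843, limma; mean -15.9%). CALR passed after quantile normalization (adjusted p = 0.0193), without mitochondrially encoded genes (0.0480) and among protein-coding genes alone (0.0492), over a range of 0.0193 to 0.324 across 17 alternatives. Its log2 change was smallest after GC and length correction (0.06, adjusted p = 0.324, limma). CANX passed after median-ratio scaling (0.0316), over a range of 0.0316 to 0.230. The lowest CANX value came from irradiated replicate 2, and without that library its log2 change was -0.16 (adjusted p = 0.0625, limma).

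Within a library the CALR to CANX ratio is independent of the library's scaling, but not of effects of GC content or transcript length. The longest transcript had 53.9% GC and 1903 bases for CALR, and 41.6% GC and 4260 bases for CANX. The part of such effects in the ratio was not tested. The ratio was 1.47, 1.39 and 1.46 in controls and 1.74, 2.16 and 1.72 in irradiated cells. The groups did not overlap, and the irradiated mean of 1.87 ± 0.248 (SD, n = 3) against 1.44 ± 0.0422 fell to 1.73 without irradiated replicate 2. The exact permutation p of 0.10 (two-sided) is the smallest the design allows. It was fixed by the choice of the pair, as every irradiated CALR value was above and every CANX value below the controls. The ratio was formed after the values had been seen, so it describes these libraries.

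**Figure D3:**
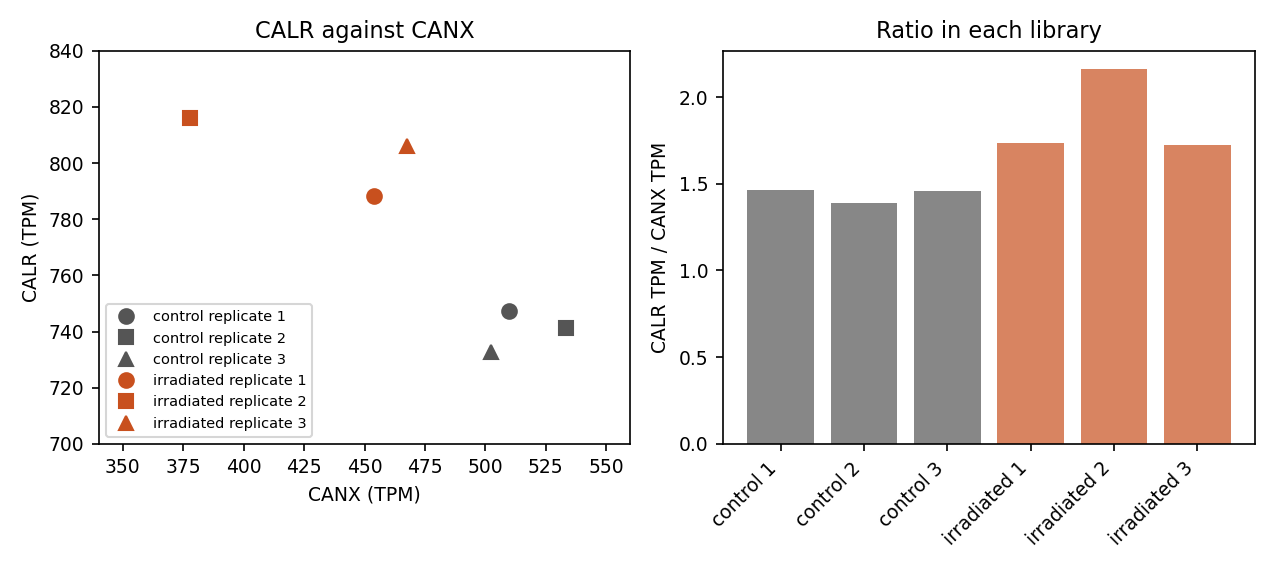
Left, CALR against CANX in each library, both in TPM on axes that do not start at 0; right, the CALR to CANX ratio in each library. Irradiated libraries (orange) have ratios of 1.72 to 2.16 and controls (grey) 1.39 to 1.47, and irradiated replicate 2 stands apart on the CANX axis.

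Of the protein disulfide isomerases, PDIA3 (ERp57), which works on glycoproteins together with CALR and CANX, was the only one of these 10 genes called. PDIA3 (ENSG00000167004; chromosome 15, 43746392 to 43773279) was at 282.7, 275.7 and 266.6 TPM in controls and fell to 251.2, 242.2 and 245.9 TPM. All irradiated values were below all controls. The log2 change was -0.16 ± 0.04 (SE; adjusted p = 0.0456, limma). The call was lost in 12 of 17 alternatives, among them each of the 6 fits with 1 library left out (adjusted p = 0.0630 to 0.147; 0.0850 without irradiated replicate 1), and the adjusted p ranged from 0.0369 to 0.152 over all 17. The direction was the same in all 17. Reads of its pseudogenes cannot be separated with certainty: PDIA3P1 and PDIA3P2 reached at most 1.69 and 8.15 TPM.

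PDIA4 (ERp72) was at 133.7, 131 and 137.6 TPM in controls and 127.3, 125.4 and 129.3 TPM in irradiated cells. Its groups did not overlap either, but its log2 change of -0.07 ± 0.04 (SE) did not pass (adjusted p = 0.276, limma). PDIA6, which also acts on the sensor IRE1, was at 283.5, 265.8 and 274.4 TPM in controls and 269.4, 261.5 and 269.2 TPM in irradiated cells, with overlapping groups and a log2 change of -0.04 ± 0.04 (SE; adjusted p = 0.536, limma). PDIA3 and PDIA6 had control means within 1 SD of each other (275.0 ± 8.07 and 274.5 ± 8.86 TPM). After irradiation PDIA3 lay at 246.4 ± 4.53 and PDIA6 at 266.7 ± 4.51 TPM. Every irradiated library held less PDIA3 than PDIA6, as did control replicates 1 and 3 but not control replicate 2. The ratio of PDIA3 to PDIA6, also not among the planned results, was 0.972 to 1.04 in controls and 0.914 to 0.932 in irradiated libraries.

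XBP1, HERPUD1 and DNAJB9 showed no detectable change. XBP1, the transcription factor whose RNA is spliced by IRE1, was at 84.4, 81.1 and 80.0 TPM in controls and 83.3, 80.6 and 76.7 TPM in irradiated cells. Its log2 change was -0.03 ± 0.05 (SE; adjusted p = 0.751, limma; 95% interval of the ratio 0.905 to 1.06). The table gives 1 value per gene, so spliced and unspliced XBP1 RNA are added together and IRE1 activity was not measured. HERPUD1, which encodes a membrane protein of ER-associated degradation, was at 56.8, 50.5 and 52.0 TPM in controls and 49.9, 51.4 and 50.1 TPM in irradiated cells. Its groups overlapped, and its log2 change was -0.07 ± 0.06 (SE; adjusted p = 0.462, limma).

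DNAJB9 (ERdj4), a co-chaperone of BiP and a target of spliced XBP1, was the weakest of the 10 at 4.92, 4.41 and 5.04 TPM in controls and 4.79, 4.32 and 4.04 TPM in irradiated cells. Its groups overlapped. With a log2 change of -0.11 ± 0.11 (SE; adjusted p = 0.582, limma), its 95% interval of the ratio was the widest of the 10, from 0.775 to 1.11, on the log2(TPM + 1) scale that understates changes of low genes. DNAJB9 overlaps PNPLA8 and THAP5 on the opposite strand, which reached 8.82 and 13.5 TPM. Strand is not stated for these libraries, so their reads cannot be told apart where the genes overlap.

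**Figure D4:**
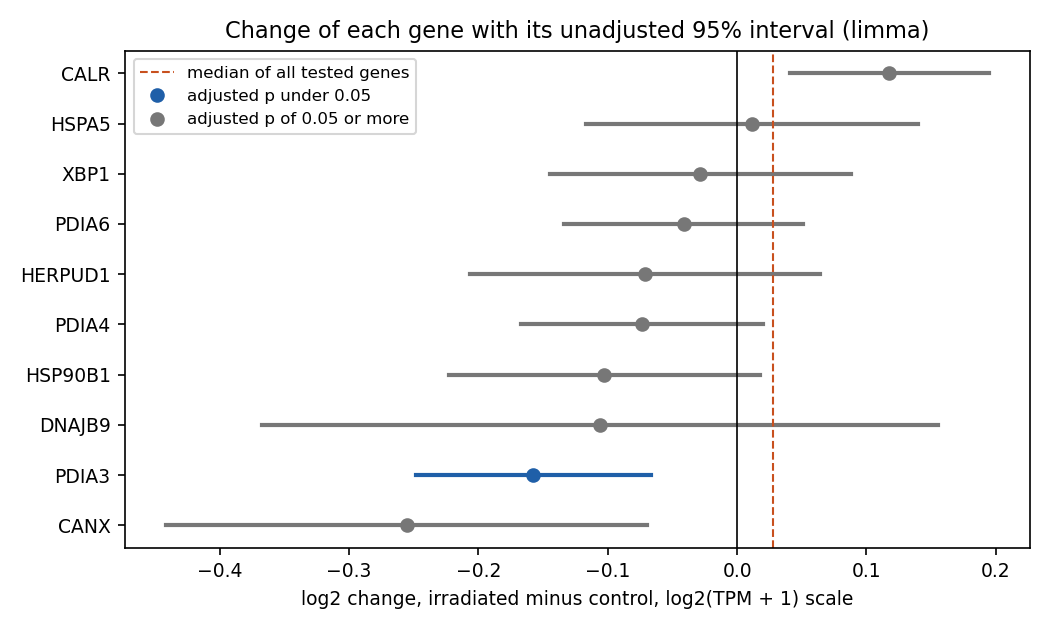
Log2 change (irradiated minus control, log2(TPM + 1) scale) of each gene with its unadjusted 95% interval from limma; the dashed line is the median of all tested genes, 0.03. PDIA3 (blue) passed at an adjusted p under 0.05; the intervals of CALR, PDIA3 and CANX leave out 0, and those of the other 7 include it.

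In control cells the order by level was CALR (740 ± 7.44 TPM, SD, n = 3), CANX (515 ± 16.2), HSP90B1 (411 ± 14.3), HSPA5 (294 ± 6.90), PDIA3, PDIA6, PDIA4 (134 ± 3.29), XBP1 (81.8 ± 2.28), HERPUD1 (53.1 ± 3.27) and DNAJB9 (4.79 ± 0.335). PDIA3 and PDIA6 were the only neighbours in this order whose control values overlapped. By mean level over the 6 libraries, CALR exceeded 98.8% of all tested genes, HSPA5 97.1% and DNAJB9 27.2%. In irradiated cells the order was the same except that PDIA6 (267 TPM) stood above PDIA3 (246 TPM). There the values of CANX (378 to 467.8 TPM) and HSP90B1 (358.1 to 395.2 TPM) overlapped, through the CANX value of irradiated replicate 2. Over the 6 libraries the genes with the pattern most like HSPA5 on the log2(TPM + 1) scale were SPRING1 (Pearson r = 0.994), PLRG1 (0.991) and MATN2 (0.987). None of these was called, all 6 libraries share their scaling, and as the 3 highest among all genes compared such values describe only these libraries.

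Of 16 tested sensors and transducers of the UPR, none rose and 2 fell, ATF4 and NFE2L2, with a median log2 change of -0.11. The 12.5% called is near the 10.6% of all tested genes. ATF4, the transcription factor downstream of PERK, fell from 401 ± 8.77 TPM in controls to 305 ± 2.23 TPM, a log2 change of -0.39 ± 0.03 (SE; adjusted p = 0.00309, limma), and it was called in all 17 alternatives. NFE2L2, which encodes the antioxidant regulator NRF2, also a substrate of PERK, fell from 52.9 ± 1.78 TPM in controls to 44.2 ± 1.25 TPM (adjusted p = 0.0268, limma). Only RNA was measured, so these falls give neither the activity of PERK nor the level of the ATF4 and NRF2 proteins. The NFE2L2 call was lost in 7 of 17 alternatives, among them the 4 fits that left out control replicate 1, control replicate 2, irradiated replicate 1 and irradiated replicate 3 in turn (adjusted p = 0.0595 to 0.108). ERN1 (2.75 ± 0.191 and 2.94 ± 0.886 TPM), EIF2AK3 (10.3 ± 0.729 and 10.8 ± 1.5 TPM) and DDIT3 (11.5 ± 2.11 and 12.0 ± 0.924 TPM), the gene of the pro-apoptotic factor CHOP, had overlapping groups and were not called (adjusted p = 0.890, 0.810 and 0.760, limma). ATF6 was at 25.1 ± 1.09 and 28.6 ± 2.41 TPM, a log2 change of 0.18 that did not pass (adjusted p = 0.189, limma). It passed after GC and length correction (0.26, adjusted p = 0.0296) and in none of the other 16 alternatives, over a range of 0.0296 to 0.399.

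The wider set of ER chaperones and folding enzymes, 30 genes, had 1 rise and 2 falls (10.0% called, against 10.6% of all tested genes), with a median log2 change of -0.02. SIL1, the nucleotide exchange factor of BiP, rose from 38.7 ± 1.84 TPM in controls to 50.9 ± 4.12 TPM, a log2 change of 0.38 ± 0.07 (SE; adjusted p = 0.0221, limma). TXNDC5, a disulfide isomerase, fell from 120 ± 1.72 to 95.04 ± 8.92 TPM (adjusted p = 0.0275, limma). ERP29, a chaperone of the same fold without isomerase activity, fell from 137 ± 3.92 to 117 ± 3.47 TPM (adjusted p = 0.0223, limma). These calls were lost in 5, 7 and 8 of 17 alternatives. Without control replicate 1, control replicate 2 or irradiated replicate 3, SIL1 had an adjusted p of 0.0676 to 0.0875. TXNDC5 was lost without any 1 control or irradiated replicate 1 (0.0518 to 0.0909), and ERP29 without any 1 library but irradiated replicate 2 (0.0529 to 0.0909). Of 20 genes of ER-associated degradation, 1 fell (5.0% called, against 10.6% of all tested genes): TMUB1, which encodes a membrane protein with a ubiquitin-like domain, went from 71.4 ± 2.47 to 58.8 ± 3.89 TPM (adjusted p = 0.0321, limma), and the median log2 change was -0.01. TMUB1 was lost in 9 of 17 alternatives, and without any 1 library but irradiated replicate 2 (0.0699 to 0.111).

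Of 23 genes of the translocon, signal peptidase and oligosaccharyltransferase, which serve entry into the ER, 2 rose and 3 fell, with a median log2 change of -0.05. The share called was 21.7%, against 10.6% of all tested genes (6.53% higher and 4.07% lower). SSR4, a subunit of the translocon-associated complex, rose from 244 ± 24.6 to 300.4 ± 9.23 TPM (adjusted p = 0.0410, limma), whereas SSR2, a subunit of the same complex, fell from 264 ± 4.45 to 217 ± 7.80 TPM (adjusted p = 0.0103, limma). The catalytic subunit gene STT3A fell from 122 ± 4.42 to 101 ± 3.804 TPM (adjusted p = 0.0206, limma). SSR2 passed in all 17 alternatives. SSR4 lost its call in 10, among them without any 1 library but control replicate 3 (adjusted p = 0.0747 to 0.123), and STT3A in 7, among them without any 1 control or irradiated replicate 1 (0.0596 to 0.0722).

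Of 18 genes of COPII vesicles and ER export, 1 rose and 2 fell (16.7% called, against 10.6% of all tested genes), with a median log2 change of -0.13. The KDEL receptors return soluble chaperones such as BiP to the ER. KDELR2 fell from 121 ± 9.43 TPM in controls to 92.3 ± 4.48 TPM, a log2 change of -0.39 ± 0.07 (SE; adjusted p = 0.0167, limma). KDELR3 rose from 38.0 ± 0.157 TPM in controls to 45.04 ± 0.995 TPM, a log2 change of 0.24 ± 0.05 (SE; adjusted p = 0.0262, limma). SEC13, a coat subunit, fell from 217 ± 7.06 to 187 ± 5.29 TPM (adjusted p = 0.0251, limma). These calls were lost in 4, 8 and 8 of 17 alternatives, with the same direction in each. KDELR2 was lost in the fits that left out control replicate 1, control replicate 2 and irradiated replicate 3 in turn (limma, adjusted values of p of 0.0544 to 0.0567). KDELR3 (0.0648 to 0.101) and SEC13 (0.0600 to 0.0863) were lost without any 1 library but irradiated replicate 2.

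The cytosolic and mitochondrial heat shock chaperones are the families most like the ER chaperones. The list read here has 21 tested genes, among them the transcription factors HSF1 and HSF2, which were not called. Of the 21 genes, 1 rose and 10 fell (52.4% called, against 10.0% of the 10 ER genes and 10.6% of all tested genes). Their median log2 change was -0.16. HSP90AA1, the cytosolic relative of HSP90B1, fell from 901 ± 19.5 TPM in controls to 672 ± 51.6 TPM, a log2 change of -0.43 ± 0.06 (SE; adjusted p = 0.00911, limma). STIP1, a co-chaperone that joins HSP70 to HSP90, fell from 343 ± 5.85 to 274 ± 6.41 TPM (adjusted p = 0.00558, limma), and DNAJB6 fell from 216 ± 12.2 to 171 ± 17.4 TPM (adjusted p = 0.0392, limma). DNAJB6 was lost in 7 of 17 alternatives, among them without any 1 control or irradiated replicate 3 (0.0803 to 0.132). The number of falls in this list was 3 to 11 over the 17 alternatives, with 4 when control replicate 1, control replicate 2 or irradiated replicate 3 was left out and 6 without control replicate 3. HSP90AA1 and STIP1 passed in all 17. The difference between the 2 groups of genes was not tested, and both were chosen with results of these data known.

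**Figure D5:**
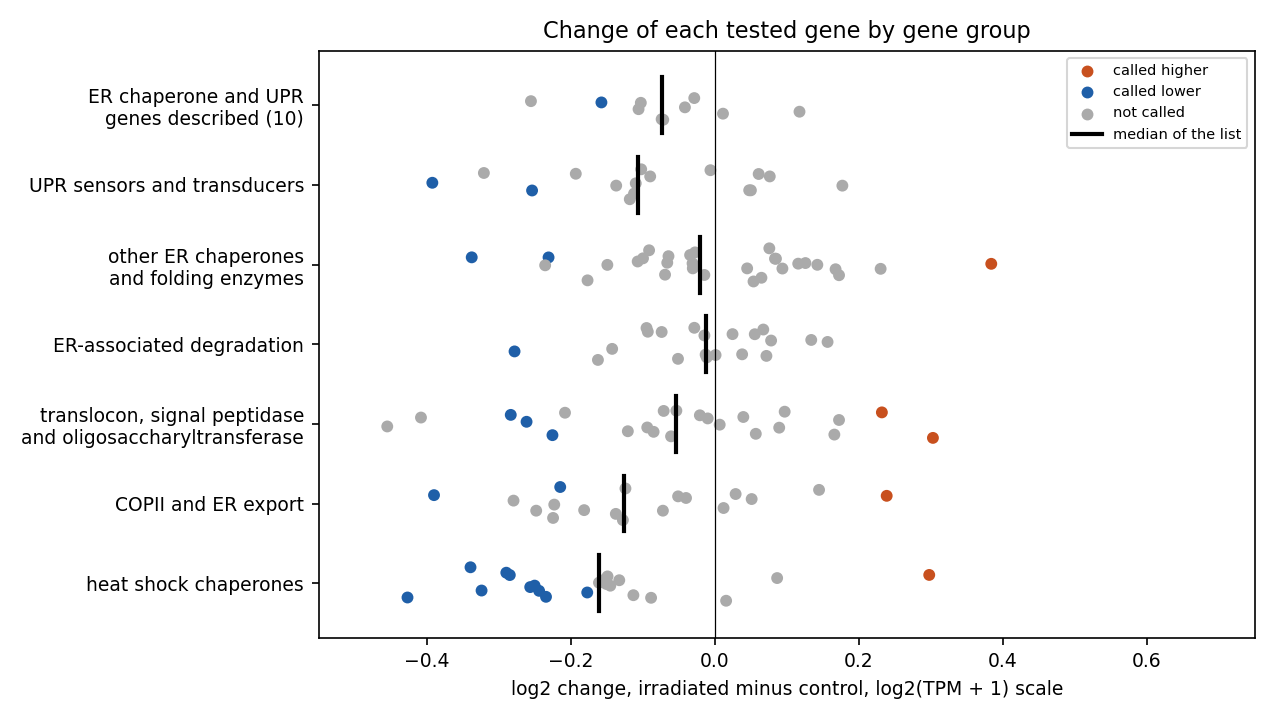
Log2 change (irradiated minus control, log2(TPM + 1) scale) of each tested gene in 7 groups; orange marks genes called higher and blue genes called lower, grey genes not called, and black bars the median of each group. The 10 ER chaperone and UPR genes lie between -0.26 and 0.12, and 10 of the 21 genes in the heat shock list are blue.

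Genes that carry the same promoter element were read in the same way. Of the genes with a complete ERSE in any window, 16 were tested, and 6 of them are among the 10 described here. The other 10 had 2 genes called higher and none lower, against 6.53% and 4.07% of all tested genes, with a median log2 change of 0.17. The 2 called genes were TRIM5 (log2 change 0.66, adjusted p = 0.00779, limma), an antiviral restriction factor, and TMEM120A (0.32, adjusted p = 0.0186, limma). TRIM5 passed in all 17 alternatives, and TMEM120A was lost in 5, among them the fits that left out control replicate 1, control replicate 2 and irradiated replicate 3 in turn (0.0632 to 0.0748). The remaining 8 were not called. Of these, 5 act in the ER: CRELD2 (0.17, adjusted p = 0.130, limma), ERO1B (0.17, 0.493), FICD (0.00, 0.993), ALG12 (-0.15, 0.426) and SERP1 (-0.16, 0.162). The genes named in this paragraph were chosen after their values had been seen. Of 13 tested genes with an ERSE-II, HERPUD1 among them, none was called higher and 1 lower, ZNF143 (-0.43, adjusted p = 0.0236, limma), which was lost in 7 of 17 alternatives, among them without any 1 library but irradiated replicate 2 (0.0629 to 0.0749). A match to the motif is a description of the letters and does not show that a factor binds there.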

How the data were processed

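The authors deposited 1 table of TPM values, 1 column per library; per the submitters' processing notes, HISAT2, StringTie and RSEM were used with the build hg38, with no versions or roles. Per the labels' protocols, libraries were made with a TruSeq RNA kit from 1 μg of total RNA. The sources used here do not give annotation, strand or read depth. TPM is a share of the library, so a rise of abundant RNAs lowers all others.

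Groups came from sample titles. Rows reaching 1 TPM in 3 or more of the 6 libraries were tested (14621) with limma 3.58.1 in R 4.3.3 (lmFit, eBayes with trend, 4 residual and 3.39 prior degrees of freedom) on log2(TPM + 1), two-sided, Benjamini-Hochberg over all rows, threshold 0.05. The script was tested on simulated data. Single ratios used an exact permutation test over the 20 assignments. At most 0.479% of tested rows had identical values in 2 libraries of a group. Same-numbered libraries did not deviate together (correlations 0.03, -0.06 and -0.03), so replicate numbers were not treated as pairs.

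The 10 genes and 6 further lists (129 genes) were chosen with earlier results of these data known. Named from each list were up to 3 called genes with the largest change, and always ERN1, EIF2AK3, ATF6, ATF4 and DDIT3; for HSPA5, the 3 genes of at least 10 TPM with the highest correlation. Coordinates came from GENCODE 29 (97.5% of tested rows matched by identifier) and promoters from RefSeq. The 17 alternatives are 15 planned and 2 added later (removal of cubic GC and length trends, covering 97.4% of tested genes, and protein-coding genes alone).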

Additional observations from a re-analysis of the deposited data

How the results depend on the processing

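One of the 10 genes was called lower (PDIA3) and none higher as reported. The count of called genes lower was 0 with no filter, with eBayes without trend, after quantile normalization, after GC and length correction or once mitochondrially encoded genes were removed, 0 in every fit with 1 library left out, and 2 after median-ratio scaling (PDIA3 and CANX). The count higher was 1 (CALR) in the quantile-normalized values, without the mitochondrially encoded genes and among protein-coding genes alone. The replicate block also left 0 called lower and reduced the calls over all genes from 1550 to 362. Those calls were 497 with no filter, 993 with eBayes without trend, and 306 to 1390 with 1 library left out (356, 306 and 774 without control replicates 1, 2 and 3; 688, 1390 and 488 without irradiated replicates 1, 2 and 3). The block and the fits on 5 libraries have fewer degrees of freedom. The cause of their losses, and of the others, was not tested. The split of all calls was 955 higher and 595 lower as reported, and 778 and 852 after median-ratio scaling. The ratio of summed TPM of the 10 genes, 0.967, stayed between 0.955 and 0.985 with 1 library left out. Estimates near 0 changed sign, none with a call: HSPA5 and ERN1 after median-ratio scaling (-0.0196) and quantile normalization (-0.0777), respectively, and 5 genes when 1 library was left out, where values ranged from -0.0273 to 0.0671 for HSPA5, -0.0559 to 0.0031 for XBP1, -0.114 to 0.215 for ERN1, -0.0501 to 0.121 for EIF2AK3 and -0.0715 to 0.165 for DDIT3. With 3 libraries per group and an unknown read depth, small changes may have gone undetected. The unadjusted intervals do not give the limit of detection: those of CALR and CANX left out 0, yet neither gene was called.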

Other observations

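The translocon-associated protein complex has 4 subunits, SSR1 to SSR4, which help nascent chains enter the ER, and its transcripts did not move as a block. Beside the fall of SSR2 and the rise of SSR4, SSR3 was at 296 ± 11.8 and 286 ± 23.4 TPM (SD, n = 3 per group) and was not called (adjusted p = 0.637, limma). SSR1 was at 60.5 ± 11.1 TPM in controls and 44.9 ± 13.5 TPM in irradiated cells and was not called (log2 change -0.45 ± 0.23 SE, adjusted p = 0.245, limma). Its groups overlapped, with the lowest value in irradiated replicate 2 (29.7 TPM) and the highest in control replicate 2 (73.3 TPM). Among the KDEL receptors, KDELR1, the most abundant, was at 199 ± 5.69 and 190 ± 5.44 TPM and was not called (adjusted p = 0.308, limma), between the fall of KDELR2 and the rise of KDELR3. SSR1, SSR3 and KDELR1 were named after their values had been seen.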
